A study of Brassica napus with 6 samples.

Results

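The miR160 and miR167 families are the plant microRNAs (miRNAs) that act on auxin response factors, here followed in shoot apices of Brassica napus (oilseed rape). Every row of the known miRNA lists named miR160 or miR167 was taken. That gave 6 rows, bna-miR160a-d, bna-miR160e, bna-miR160f, bna-miR167a-c, bna-miR167d and bna-miR167e, of 74 known and 401 listed miRNAs. From the degradome, which captures the 5′ ends of cleaved transcripts, every record under either name was taken. There were 6 of 554 records in the rod-like library and 6 of 535 in the normal library, all of them for miR160.

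The study set rod-like plants, a form the labels do not describe further, against normal plants. Both were grown in the same field and sampled at early bolting, when 3 months old, with 6 plants pooled per RNA sample. The labels name no line or genotype for either form and no treatment, and the sampled tissue is the shoot apex, which holds more cell types than the meristem named in one label. Small RNA was deposited as 2 rod-like and 2 normal files, and degradome data as 1 library of each form. The rod-like degradome title carries the number 3, which no small RNA title has, so a shared RNA sample is not given by the labels.

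Auxin response factors (ARFs) are transcription factors that bind auxin-responsive promoters. In Arabidopsis, miR160 directs cleavage of the transcripts of ARF10, ARF16 and ARF17, which mostly repress auxin-responsive genes. In the same species miR167 acts on ARF6 and ARF8, activators needed for flower maturation and stem elongation. Plant miRNAs usually pair with their targets along nearly their whole length, and Argonaute then cuts the target opposite the middle of the miRNA.

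The mature miR160 sequence and its listed target sites are shown because the degradome result rests on them. The miRNA line gives the only miR160 name in the degradome, as the alignments have it, 5′ to 3′ with T for U and its seed (bases 2 to 8) in capitals. The letter d places this name in the row bna-miR160a-d. The other lines give the 6 target sites, 5′ to 3′, and capitals there mark bases that do not form a Watson-Crick pair with the miRNA.
bna-miR160d: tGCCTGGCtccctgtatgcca
BnaA07g20790D: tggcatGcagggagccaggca
BnaC06g20640D: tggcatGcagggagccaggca
BnaA07g33740D: CggcatGcagggagccaggca
BnaC06g38360D: CggcatGcagggagccaggca
BnaA07g13830D: GggAatacagggagccaggca
BnaC04g15900D: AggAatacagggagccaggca

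In the small RNA data, miR160f was less abundant in the rod-like sample under all 4 scalings tried, and miR167a-c was more abundant in all but 1, where it was level. The balance of the families was shifted towards miR167, a relative measure that does not tell which family moved. The ratio of miR167 to miR160 counts was 1.39-fold higher in rod-like apices (95% counting interval 1.31 to 1.46), and this value does not depend on how libraries are scaled. Each family also had another make-up, with less miR160f within miR160 and less miR167e within miR167 in the rod-like sample. In the degradome, the same 6 miR160 target sites were listed in both libraries, each in the first of the 4 evidence categories. No miR167 record was listed in either. In whole apices, a shift in the mix of cells and a shift in RNA per cell cannot be told apart, and the files hold no protein-coding marker by which to check the tissue.

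Within a form, the 2 files agreed within the sampling noise, so their mean was counted as 1 sample, although the labels list them as separate samples. Over miRNAs with at least 10 summed counts, chi-square divided by its degrees of freedom was 1.05 between the rod-like files (p = 0.246) and 0.885 between the normal files (p = 0.952), against 116 to 118 between forms. With n = 1 for each form, the differences have no replicate check, and they describe these libraries. Summed counts over listed miRNAs were 712169 and 713637 in the rod-like files and 625795 and 629101 in the normal files. Levels are in RPM, reads per 1000000 listed miRNA reads after scaling by edgeR's TMM factors over all listed miRNAs. Ratios are rod-like over normal, from mean counts per file, with exact 95% intervals for counting error alone.

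The rows spanned a range of abundance in the same order in both forms, miR167a-c first, then miR167e, miR160f, miR160e, miR160a-d and miR167d. By rank among the 74 known miRNAs, miR167a-c stood at place 8 in rod-like and 9 in normal apices, and miR167d at 46 and 47. Neighbours in this order were furthest apart at the step from miR160e to miR160a-d, with a ratio of 5.29 (4.67 to 5.99) in the rod-like and 5.26 (4.60 to 6.03) in the normal sample. The closest neighbours were miR160f and miR160e in the rod-like sample, with a ratio of 1.09 (1.02 to 1.17), against 1.47 (1.37 to 1.58) in the normal sample. The intervals of all neighbours in the order excluded 1, so no rows were tied at this depth.

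**Figure D1:**
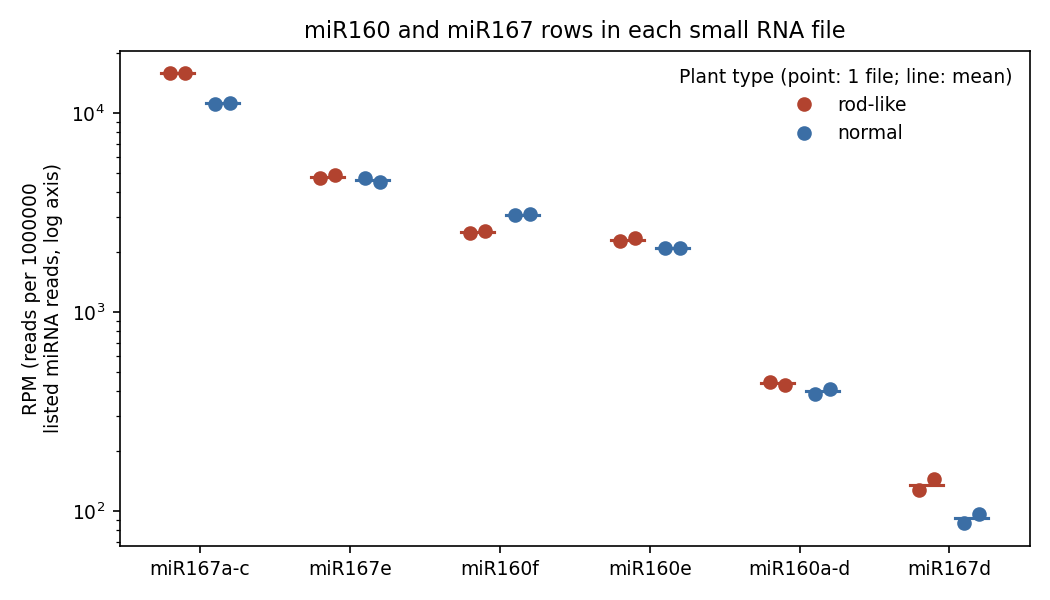
RPM (log axis) of the 6 rows in each small RNA file, with rod-like files left of normal files and a line at the mean of the 2 files. The rod-like points lie above the normal points for miR167a-c, miR160e, miR160a-d and miR167d, below them for miR160f, and overlap them for miR167e.

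Among the miR167 rows, miR167a-c, the main form of the regulator of ARF6 and ARF8, had 15850 and 15878 RPM in the rod-like files, against 11165 and 11266 RPM in the normal files. The files of the forms lay far apart compared with the gap within each form. The ratio was 1.41 (1.37 to 1.46). For miR167d, the scarcest row, the files held 89 and 100 counts in rod-like and 55 and 63 counts in normal apices. That corresponds to 128 and 144 RPM in the rod-like and 86.7 and 96.9 RPM in the normal files, a ratio of 1.48 (1.06 to 2.08). The groups did not overlap, but the few counts leave a wide interval. The levels of miR167e were 4703 and 4879 RPM in the rod-like files and 4716 and 4494 RPM in the normal files. Here the files overlapped, and the ratio of 1.04 (0.990 to 1.09) included 1.

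Among the miR160 rows, miR160f had 2496 and 2544 RPM in the rod-like files, against 3061 and 3120 RPM in the normal files. Under this scaling it was the only row of either family whose rod-like files both lay below the normal files, with a ratio of 0.815 (0.764 to 0.870). For miR160e the values were 2268 and 2362 RPM in rod-like and 2107 and 2094 RPM in normal files, a ratio of 1.10 (1.02 to 1.19) that turned below 1 with scaling on known miRNAs alone. The row that holds miR160d, miR160a-d, had 444 and 431 RPM in the rod-like and 386 and 412 RPM in the normal files. Its files did not overlap, yet its ratio of 1.10 (0.926 to 1.30) included 1, so a difference was not detectable at this depth under this scaling. With scaling on known miRNAs alone it was 0.778 (0.657 to 0.922). Summed over rows, the miR160 family had a ratio of 0.943 (0.901 to 0.988), which was 0.669 (0.639 to 0.701) with scaling on known miRNAs alone. Its interval included 1 without rod-like replicate 1 (0.913 to 1.001) and without normal replicate 2 (0.923 to 1.013). The miR167 family had a ratio of 1.31 (1.27 to 1.34), which was 0.926 (0.903 to 0.9503) with scaling on known miRNAs alone.

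Set against the whole table, these differences were small under the main scaling. With TMM over all miRNAs and all files, none of the 6 rows passed a ratio of 1.5 in either direction, which, with an interval that excluded 1, 13.0% of the 391 miRNAs tested and 40.0% of the 65 known miRNAs tested did. With scaling on known miRNAs alone miR160f passed it, at 0.578 (0.542 to 0.617), and miR167d was at 1.57 without rod-like replicate 1 and at 1.59 without normal replicate 2. Under the main scaling, the interval excluded 1 for 3 rows as higher and 1 row as lower, compared with 13.6% higher and 8.95% lower of all miRNAs tested, and 49.2% and 18.5% of the known ones. Files did not overlap for 4 rows as higher and 1 as lower, against 30.7% and 28.4% of all tested and 64.6% and 21.5% of the known ones. The known miRNAs tested had a median log2 ratio of 0.41, all miRNAs tested one of -0.01 and the 6 rows one of 0.14. The rod-like to normal ratio of miR167a-c was 1.07 times that of the median known miRNA, and the ratio of miR160f was 0.615 times it. This value was 1.11 for miR167d, 0.831 for miR160e, 0.826 for miR160a-d and 0.784 for miR167e. For the family sums it was 0.985 for miR167 and 0.711 for miR160.

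edgeR's quasi-likelihood test, which takes the files as replicates, called 3 of the 6 rows higher (miR167a-c, miR167d and miR160e) and miR160f lower at an adjusted p of 0.05. Of all 391 miRNAs it called 16.6% higher and 11.5% lower, and of the known ones 52.3% and 16.9%. Its p-values rest on the spread between files that agree within counting noise. The calls of miR167d and miR160e were absent with DESeq2's Wald test, with the file number as a replicate block, without rod-like replicate 2 and without normal replicate 1, and that of miR160e was absent with the total count too. Without rod-like replicate 1, miR167e was called higher as well. With scaling on known miRNAs alone, no row was called higher, and miR160a-d, miR160e, miR160f and miR167e were called lower. Under that scaling, 28 of all 391 miRNAs were called higher and 170 lower, so these calls are not read as particular to the rows.

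The scaling sets the direction for part of the rows. Scaling by TMM on the known miRNAs alone moved the median of all miRNAs by -0.49 on the log2 scale, and every row moved with it by -0.50. The log2 ratio then became 0.00 for miR167a-c (-0.04 to 0.05) and -0.79 for miR160f (-0.88 to -0.70), and miR160e turned to -0.36 (-0.46 to -0.25). Under all 4 scalings miR160f was lower in the rod-like sample. The higher level of miR167a-c held with TMM over all miRNAs, with DESeq2's size factors and with the total count, and not with known miRNAs alone.

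**Figure D2:**
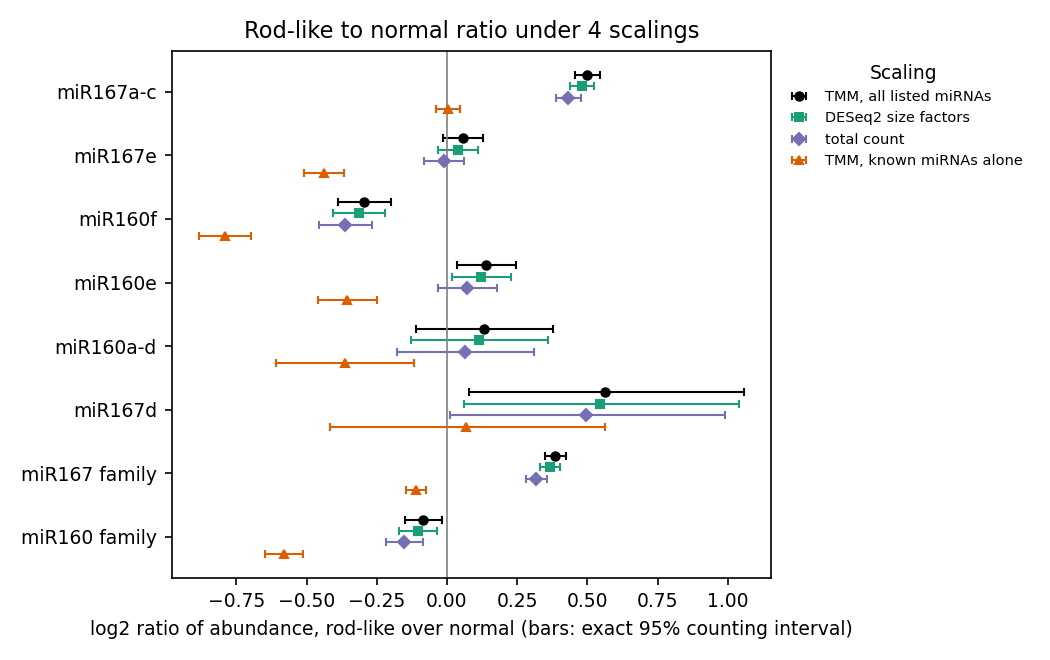
Log2 ratio of abundance, rod-like over normal, for each row and each family sum under 4 scalings, with bars for the exact 95% counting interval. The points of a row shift together between scalings, and miR160f stays below 0 in all 4, while miR167a-c is at 0.00 when scaled on known miRNAs alone.

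Ratios between rows of one library need no scaling. Of the 15 pairs of rows, 9 changed between forms by more than counting error, and in 12 the files of the forms did not overlap. Such counts were not made over pairs of all or known miRNAs, so the pair counts are not read as particular to these families. For scaled levels of single miRNAs, an unlike measure, files did not overlap for 64.6% of the known ones tested as higher and 21.5% as lower. Of all miRNAs tested these shares were 30.7% and 28.4%. The ratio of miR160f to miR167a-c was 0.157 and 0.160 in the rod-like files, against 0.274 and 0.277 in the normal files, so miR167a-c gained 1.73-fold (1.62 to 1.86) on miR160f. Within miR160, the ratio of miR160a-d to miR160e differed between forms by no more than counting error, at 0.997 (0.828 to 1.20). Both gained on miR160f, miR160e by 1.35-fold (1.23 to 1.49) and miR160a-d by 1.35-fold (1.12 to 1.62). Within miR167, miR167a-c gained 1.36-fold (1.28 to 1.44) and miR167d 1.41-fold (1.005 to 1.998) on miR167e. The ratio of miR167a-c to miR167d did not differ beyond counting error, at 0.963 (0.682 to 1.35). In each family, 1 row, miR160f or miR167e, thus stood lower relative to the other rows of that family in the rod-like sample.

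As a share of the miR160 counts, miR160f took 47.9% and 47.7% in the rod-like files, against 55.1% and 55.5% in the normal files. The share of miR160e was 43.5% and 44.2% in the rod-like and 37.9% and 37.2% in the normal files. Of the miR167 counts, miR167a-c took 76.6% and 76.0% in the rod-like and 69.9% and 71.0% in the normal files. The Clopper-Pearson intervals of these shares, which are at most 1.66 percentage points from the value in single files, did not overlap between forms. The miR167a-c row remained the major form of its family, while miR160 was split between miR160f and miR160e. Reads of near-identical rows could have been divided by the authors' counting, which is not given in the sources used here.

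**Figure D3:**
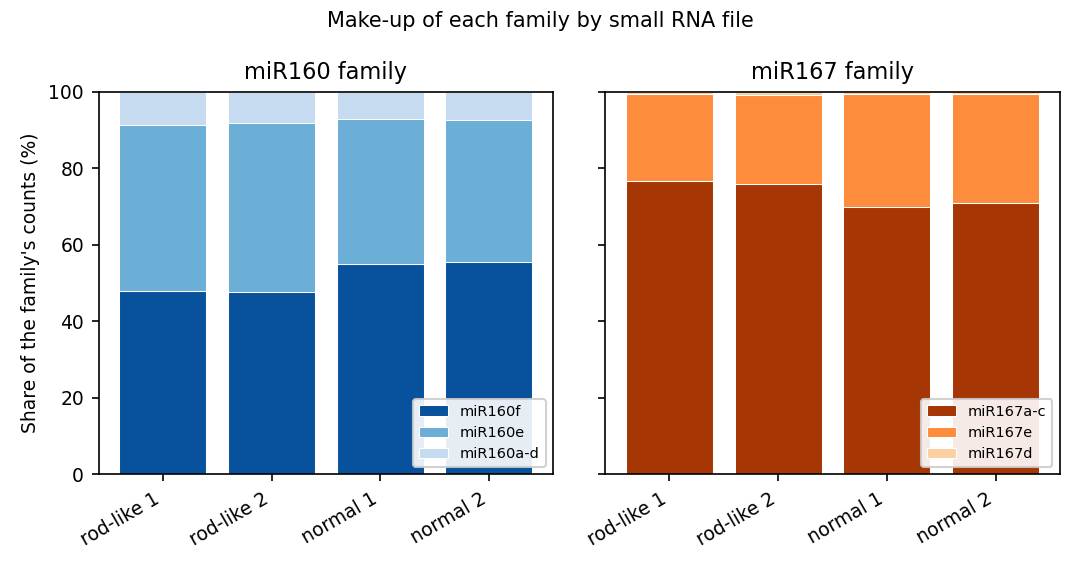
Share of each family's counts (%) taken by its rows in each small RNA file, rod-like files left of normal files. The miR160f band is lower in both rod-like files (47.9% and 47.7%) than in the normal files (55.1% and 55.5%), and the miR167e band is lower in the rod-like files too.

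The other auxin rows were those of miR390, which triggers the TAS3 small RNAs that act on further ARFs, and of miR393, which acts on the TIR1 and AFB auxin receptors. No row of miR847 was listed. Of these 3 rows, 2 were tested by edgeR, with 1 called lower and none higher, beside 11.5% lower and 16.6% higher of all miRNAs tested and 16.9% and 52.3% of the known ones. The lower one, miR390a-c, had 10148 RPM in the rod-like and 11765 RPM in the normal sample, a ratio of 0.862 (0.835 to 0.891). The miR393 rows held 5 to 23 counts per file, too few to show a difference of this size. Over the 8 tested rows of the whole auxin list the median log2 ratio was 0.10, against -0.01 over all and 0.41 over known miRNAs tested.

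In the degradome, all 6 miR160 targets were listed in both libraries, under the name bna-miR160d. The targets were BnaA07g20790D at position 1297, BnaC06g20640D at 1294, BnaA07g33740D at 352, BnaC06g38360D at 1270, BnaA07g13830D at 1354 and BnaC04g15900D at 1339 of the transcript. Position, score, category and P-value are those of the authors' target caller. None of the 6 identifiers matched the RefSeq gene table, so no gene name is given to them, and genome coordinates are not given in the files. Positions were identical in the rod-like and normal libraries.

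All 6 records of each library were in category 0, taken here as the strongest evidence because it is the lowest number. For 6 of 6 records the Clopper-Pearson 95% interval of the share is 54.1% to 100%, and the records share 1 miRNA. Of the records of other named miRNAs, 89.4% were in category 0 in the rod-like and 76.0% in the normal library, and of those of predicted miRNAs 10.1% and 5.99%. Several names can list the same site. Over distinct target positions the shares were 87.0% and 68.5% for other named miRNAs, and 11.1% and 6.19% for predicted ones. With 6 records, the interval of miR160 covers the share of other named miRNAs in both libraries. The listed P-value was 0.002 for each of the 6 sites in the rod-like and 0 in the normal library, which are values written to 3 decimals. Among 242 sites of named miRNAs listed in both libraries, it was larger in the rod-like library for 57, equal for 106 and smaller for 79. With 1 library per form and no tag counts in the records, the amount of cleavage was not compared.

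The 6 sites share a core of pairing. Records were taken here by name, without regard to pairing, but the caller's list holds only paired sites, with scores up to 4.5. Sites of 1 miRNA share its complement, so a common core follows in part from the listing. The score in these files equals 1 for each mismatch or gap plus 0.5 for each G:U wobble, which held for all 1089 records. The sites of BnaA07g20790D and BnaC06g20640D had the best score, 0.5, from 1 wobble opposite miRNA base 15. Those of BnaA07g33740D and BnaC06g38360D added a mismatch opposite base 21, for a score of 1.5. The last 2 sites, of BnaA07g13830D and BnaC04g15900D, had a Watson-Crick pair at base 15 and mismatches opposite bases 18 and 21, for a score of 2. Bases 1 to 14 of miR160d, which include the seed and the middle of the miRNA, were paired in all 6 sites. Of the records of other named miRNAs aligned without a gap, that was so in 37 of 209 in the rod-like and 58 of 227 in the normal library. Their records with a gap, the rest of 301 and 312, were not examined for it. The 6 sites are of 1 miRNA and alike in pairs, so they are not 6 independent cases beside these records of many miRNAs.

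**Figure D4:**
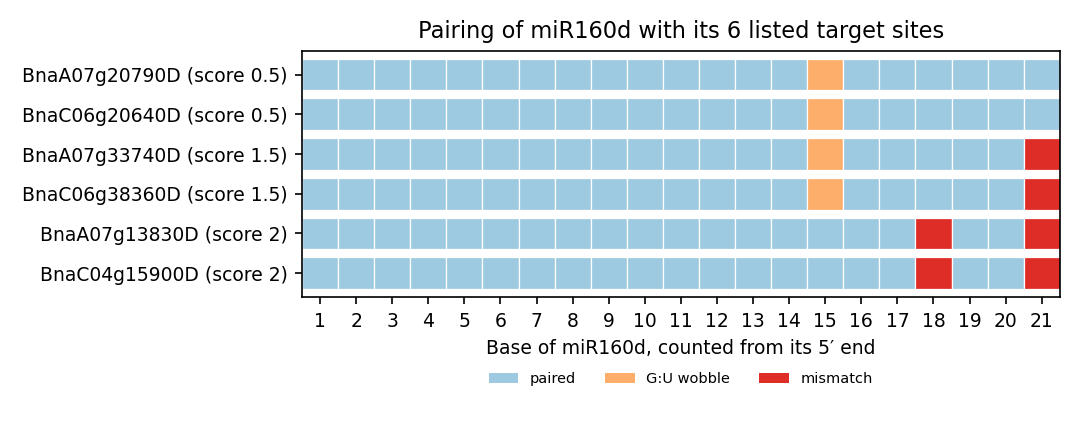
Pairing of each base of miR160d, counted from its 5′ end, with the 6 target sites, ordered by score. Bases 1 to 14 are paired in every site, and the wobble opposite base 15 and mismatches opposite bases 18 and 21 fall in the 3′ part of the miRNA.

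The sites fall into 3 kinds by their pairing with miR160d, with 1 pair of transcripts each, and have 4 distinct sequences. In each pair 1 identifier begins with BnaA and the other with BnaC, the marks of the A and C subgenomes of B. napus. The letters of the site were identical within the first pair and within the second, and the third pair differed by G1A from BnaA07g13830D to BnaC04g15900D, with positions counted from 1 at the 5′ end of the site. The first and second kinds differed by T1C, from BnaA07g20790D to BnaA07g33740D. Positions within a pair were 3, 918 and 15 bases apart. All distances between the 6 positions were multiples of 3. The same held in 9 of 17 other named families with at least 4 listed positions, so it is a common property in these records.

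No other miRNA name listed any of these 6 transcripts. Of the 216 miRNA names in the degradome, predicted ones included, miR160d alone had the seed GCCTGGC at bases 2 to 8, and no other name held these 7 letters anywhere. The complement of its bases 1 to 14 was found in the listed sites of these 6 targets and of no other target. Only listed sites were searched, each paired with a name that lacks this seed, so this does not bear on other transcripts.

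Abundance and degradome records went apart for the 2 families. By mean count per file, miR167 ranked sixth and miR160 ninth of 38 known families. Of these families 23 had a degradome record and 15 had none, and miR167 was the second most abundant of those without, after miR158. The miR160 records carried the name of the row with 305 counts per file in the rod-like and 256.5 in the normal sample, the lowest of the miR160 rows, while miR160e and miR160f had no record under their own names. Which names were searched for in the degradome is not given in the sources used here, so the lack of miR167 records says nothing about cleavage of its targets. The families miR393 and miR390 had 14 and 2 records in the rod-like and 10 and 0 in the normal library.

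**Figure D5:**
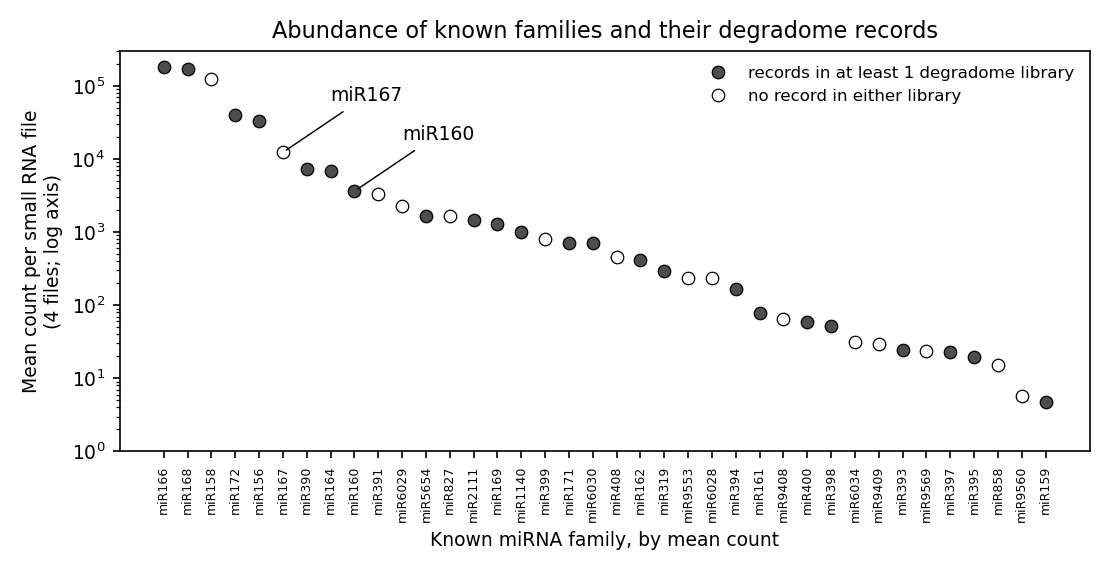
Mean count per small RNA file (log axis) of the 38 known families in order of abundance, with filled points for families that have a degradome record and open points for those without. The miR167 point is the second most abundant open one, and the miR160 point is filled.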

How the data were processed

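RNAs of 18 to 30 nt were gel-purified, ligated to adaptors, amplified and read by Illumina sequencing, per the labels' protocols. The counts deposited by the authors are whole numbers per known or predicted miRNA. The degradome files hold target records with position, score, category and P-value, per the file headers. Mapper, annotation and target caller: not given in the sources used here.

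Mean counts per file were scaled by TMM factors (edgeR 4.0.16, R 4.3.3), computed over the 391 miRNAs kept by filterByExpr. Ratio intervals are exact conditional ones, and odds ratios between rows used counts rounded to whole numbers (SciPy 1.17.1). Since PCR reads are not separate molecules, intervals cover counting error alone. The whole-table test was edgeR's quasi-likelihood test with Benjamini-Hochberg adjustment, tested on simulated data. Alternatives covered scaling, filter, DESeq2 1.42.0, a replicate block, each file left out and the definition of a degradome target. The members and lists were chosen with earlier results of these data known. All 6 rows and all 6 degradome targets are named. The auxin list holds miR160, miR167, miR390, miR393 and miR847.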

Additional observations from a re-analysis of the deposited data

How the results depend on the processing

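Shares within a family and the miR167 to miR160 ratio (1.37 to 1.40 with each file left out) kept their values within counting error under the alternatives run for them. The degradome counts kept theirs exactly, but the alternatives could not have changed them. All miR160 records were in category 0, with a P-value of 0.002 or 0, the prefix bna and 1 position per target. For miR167 there was no record to remove. With TMM on known miRNAs alone, log2 ratios were -0.36 for miR160a-d, -0.36 for miR160e, -0.79 for miR160f, 0.00 for miR167a-c, 0.07 for miR167d and -0.44 for miR167e, and -0.58 for the miR160 and -0.11 for the miR167 family. This follows from the scaling, which moved all rows alike. With the total count they were 0.43 for miR167a-c, -0.15 for the miR160 and 0.32 for the miR167 family. Across the table, the numbers called higher and lower were 28 and 170 with TMM on known miRNAs alone, and 38 and 19 with DESeq2's Wald test. They were 65 and 45 as reported, and 48 to 56 and 23 to 34 with each file left out. The replicate block gave 39 and 14. The file numbers are shared by title only, and deviations of same-numbered files correlated at 0.01 over the tested miRNAs. In the auxin list, of 8 rows tested, 3 were called higher and 2 lower in the main fit, and 0 and 5 with TMM on known miRNAs alone. Across the table these numbers were 65 and 45, and 28 and 170, of 391 miRNAs tested. DESeq2's Wald test called 1 and 2 of 9 rows of the list, beside 38 and 19 of 401 miRNAs. The list gave 1 and 2 with the replicate block, and 1 to 4 higher with each file left out, 1 without rod-like replicate 2 or normal replicate 1. For the count changes under another test or the block, the cause was not tested. Rows near 100 counts, such as miR167d, are limited by depth.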
